A study of Rattus norvegicus with 9 samples.

Results

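The 10 collagen genes described here encode the chains of the fibrillar collagens of type I, III, V and XI and of the collagens XII, XIV and XVI, which lie on the surface of such fibrils. They were picked by gene symbol, with earlier results of these data known, and all 10 were found once among the 35843 genes of the table. Whole-transcriptome RNA-seq was carried out on the left ventricle of 9 adult Sprague-Dawley rats at day 28, with 3 samples, described as rats, in each group. Each sample title names a pair of items, and whether these were repeat runs or material of separate animals is not stated. In group MI the left anterior descending artery of the heart was tied off for good, and the rats received saline. The rats labelled MI + DAPA (1st d), called the DAPA group from here on, had the same ligation and received dapagliflozin (DAPA), an inhibitor of the sodium-glucose cotransporter SGLT2, by daily gavage from the first day. Rats of group Sham had the operation without the ligation and received saline. The study's methods name the border of the infarct as the tissue mainly taken for molecular work and call the sequenced tissue infarcted myocardium elsewhere, so how much scar each library held is not known. The comparisons ask how far collagen expression differed 28 days after infarction, and whether it differed again under DAPA.

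Fibrillar collagens are made as procollagen chains that fold into a rope-like helix, are trimmed outside the cell and line up into fibrils. In the heart, type I collagen gives stiff, thick fibres and type III collagen gives finer ones. Types V and XI are built into the fibrils in small amounts and set when a fibril starts and how thick it grows. Types XII, XIV and XVI do not form fibrils themselves. They bind along the fibrils or to neighbouring matrix. Resident fibroblasts are the main producers of these chains in the heart, and the scar that replaces lost muscle after an infarction is largely made of type I and type III collagen.

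The region in front of a gene's start carries short motifs that general factors can bind, and the members that moved most and least are set beside each other here. RefSeq promoters (build GRCr8, 250 bases before to 50 after the start) matched 6 of the 10 members: Col1a2, Col5a1, Col5a2, Col5a3, Col11a1 and Col16a1. The motifs searched on both strands were the CCAAT box, which reads ATTGG on the opposite strand, the TATA box, searched as TATAAA and its reverse complement, and the GC box, searched as GGGCGG, which reads CCGCCC on the opposite strand. No motif overlaps another. The CCAAT box was in 3 of the 6 and in 37.5% of all 33469 promoters, the TATA box in 1 of the 6 and in 14.2%, and the GC box in 4 of the 6 and in 33.1%. A stretch of 100 bases is printed for Col1a2, whose level differed most of the 6 between group MI and group Sham, for Col11a1, the member with the lowest level, and for Col5a3, the member that did not pass the test. Each is written 5′ to 3′ on the strand of the gene, and capitals mark the motifs.
Col1a2: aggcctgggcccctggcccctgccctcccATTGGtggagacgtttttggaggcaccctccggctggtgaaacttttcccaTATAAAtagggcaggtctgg
Col11a1: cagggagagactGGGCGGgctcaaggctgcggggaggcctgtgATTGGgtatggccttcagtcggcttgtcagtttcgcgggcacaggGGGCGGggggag
Col5a3: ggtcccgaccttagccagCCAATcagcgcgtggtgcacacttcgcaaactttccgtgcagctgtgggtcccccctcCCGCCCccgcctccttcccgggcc
The stretch of Col1a2 is chr4:33518307-33518406 on the plus strand, from 250 to 151 bases before the start. That of Col11a1 is chr2:204509016-204509115 on the plus strand, from 120 to 21 bases before the start, and that of Col5a3 is chr8:27626049-27626148 on the minus strand, from 200 to 101 bases before the start. Of the 6 promoters, only those of these 3 members held CCAAT, in 1 orientation or the other, and each printed stretch covers such a match. Its presence in all 3 stretches follows from which genes and stretches are printed, and cannot be set against how the levels moved. These matches describe the letters of the windows and say nothing of the factors that bind there.

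Levels are given as FPKM, a count of fragments divided by the length of the transcript and by a size set for the library. Levels can be compared between genes because of the division by length. Fold changes are on log2(FPKM + 1), a scale on which genes of low level seem to change less than they do. Limma was run on the genes that reached 1 FPKM in 3 or more of the 6 rats of a comparison, and a gene was called where the unadjusted p was under 0.05 and the log2 fold change was beyond 1 in size, beside which Benjamini-Hochberg adjusted values over all genes tested are given. The libraries held 13597239 to 17210909 recovered reads, and those from nuclear genes numbered 5702454 to 6570698 in group Sham, 12635945 to 13171891 in group MI and 11440726 to 12082280 in the DAPA group. Depth for the collagens was therefore lowest in the Sham rats. Mitochondrially encoded genes made up 63.2% ± 3.18 of all reads in Sham rats, 13.8% ± 6.15 in MI rats and 25.6% ± 7.42 in DAPA rats (SD, n = 3 each). Factors that rescale the deposited values to the reads outside the mitochondrial genome ran from 0.943 to 1.08 over the libraries. Those for all recovered reads ran from 0.560 to 1.42. The library size behind the deposited values was thus closer to the reads outside the mitochondrial genome. A share of 3 reads, taken as the floor, stood for 1.74e-05% to 2.21e-05% of a library, by counting error only. Cardiomyocyte markers were abundant in every rat, as the label of ventricular tissue calls for, and their sums are given with those of the other cell types.

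In MI vs. Sham, 9 of the 10 collagens were called higher, where 12.1% of all 13485 genes tested were. The same 9 passed at an adjusted p, as did 11.5% of all genes, and in the same 9 the lowest rat of group MI lay above the highest rat of group Sham, which was so for 27.1% of all genes. The median log2 fold change of the 10 was 2.73, beside -0.01 over all genes tested. The exception was Col5a3, a chain of type V collagen. All 10 passed the filter on low values, Col11a1 and Col12a1 through the ligated rats, since Col11a1 was below 1 FPKM in every rat of group Sham and Col12a1 in 2 of them. Their calls were in part set by that filter.

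**Figure D1:**
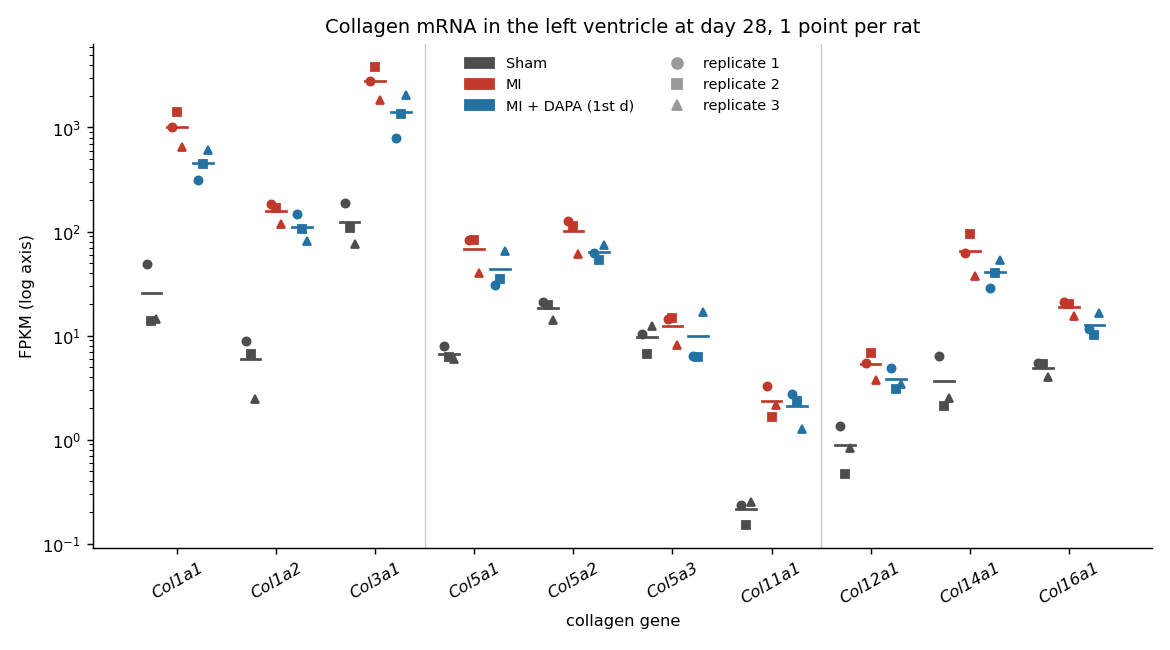
FPKM of the 10 collagens in every rat, on a log axis, with 1 colour per group, 1 symbol per replicate number and a short line at each group mean. In 9 of the 10 genes each ligated rat lies above each rat of group Sham, and in Col5a3 the groups lie over each other.

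The major chains showed the largest differences. Col1a1 (ENSRNOG00000003897), the alpha1 chain of type I collagen, was at 49.0, 13.7 and 14.3 FPKM in the rats of group Sham, at 1012, 1393 and 650 in group MI and at 312, 441 and 602 in the DAPA group. The 3 groups did not overlap, and the first rat of group Sham stood above the other two. The log2 fold change of Col1a1 in MI vs. Sham was 5.44 (SE 0.51, limma, adjusted p = 0.00103), the largest of the 10. Col1a2 (ENSRNOG00000011292), the alpha2 chain that joins it in the same molecule, was at 8.90, 6.66 and 2.46 FPKM in group Sham, at 185, 167 and 117 in group MI and at 147, 105 and 80.3 in the DAPA group. Here both ligated groups lay above group Sham but overlapped each other, with a log2 fold change of 4.60 in MI vs. Sham (SE 0.39, limma, adjusted p = 0.000953). Col3a1 (ENSRNOG00000003357), the only chain of type III collagen, was at 190, 109 and 76.0 FPKM in group Sham, at 2817, 3824 and 1840 in group MI and at 790, 1353 and 2074 in the DAPA group. Its log2 fold change in MI vs. Sham was 4.53 (SE 0.39, limma, adjusted p = 0.000953), and the third DAPA-treated rat reached above the third rat of group MI.

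Col3a1 had the highest level of the 10 in every group. Among 35806 genes outside the mitochondrial genome, it ranked between 296 and 751 by FPKM in the rats of group Sham, between 5 and 17 in the MI rats and between 8 and 84 in the DAPA group. It took 1.94% ± 0.626 of the reads outside the mitochondrial genome in group MI, against 0.0937% ± 0.0454 in group Sham (SD, n = 3 each). The 10 members together took 0.159% ± 0.0725 of these reads in Sham rats, 3.11% ± 0.991 in MI rats and 1.56% ± 0.638 in DAPA rats. The reads behind a value of a major chain numbered from 97, for Col1a2 in Sham replicate 3, to 321751, for Col3a1 in MI replicate 2.

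The minor fibril-forming chains split. Col5a1 (ENSRNOG00000008749), the alpha1 chain present in most type V molecules, was at 7.89, 6.21 and 6.003 FPKM in group Sham, at 83.1, 83.1 and 39.7 in group MI and at 30.5, 35.3 and 64.6 in the DAPA group. Col5a2 (ENSRNOG00000003736), its usual partner, was at 21.2, 19.6 and 14.2 FPKM in group Sham, at 127, 113 and 61.2 in group MI and at 61.7, 52.8 and 74.9 in the DAPA group. Both were called higher in MI vs. Sham, with log2 fold changes of 3.11 for Col5a1 (SE 0.30, limma, adjusted p = 0.00105) and 2.34 for Col5a2 (SE 0.30, limma, adjusted p = 0.00196). Col5a3 (ENSRNOG00000020525), another type V chain with a narrower known distribution, was at 10.3, 6.58 and 12.3 FPKM in group Sham, at 14.5, 14.6 and 8.04 in group MI and at 6.43, 6.19 and 17.0 in the DAPA group. No group stood apart, and the log2 fold change of Col5a3 in MI vs. Sham was 0.31, with a 95% interval from -0.38 to 1.01 (limma, adjusted p = 0.433). With the values scaled to all recovered reads, the mitochondrial genome included, that value was 1.32 and was called, and the median of all genes then stood at 0.92. In that scaling, Col5a3 lay 0.39 above the median of all genes, against 0.32 in the deposited values. Col11a1 (ENSRNOG00000023148), a type XI chain best known from cartilage, was the lowest of the 10. It was at 0.237, 0.152 and 0.252 FPKM in group Sham, at 3.28, 1.65 and 2.15 in group MI and at 2.76, 2.35 and 1.25 in the DAPA group. In group Sham these values rested on 12 to 19 reads per rat. Its log2 fold change in MI vs. Sham was 1.44 (SE 0.24, limma, adjusted p = 0.00490), although its mean FPKM was 11.1 times that of group Sham, since the addition of 1 weighs on low values.

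The fibril-associated chains were higher in MI vs. Sham in all 3 cases. Col12a1 (ENSRNOG00000058470) was at 1.36, 0.469 and 0.825 FPKM in group Sham, at 5.49, 6.79 and 3.74 in group MI and at 4.87, 3.08 and 3.42 in the DAPA group. Col14a1 (ENSRNOG00000026415) was at 6.39, 2.12 and 2.49 FPKM in group Sham, at 61.7, 94.9 and 37.6 in group MI and at 28.7, 39.9 and 53.0 in the DAPA group. Type XIV collagen, which binds fibrils together with the proteoglycan decorin, moved about as far as the major chains. The log2 fold change in MI vs. Sham was 3.83 for Col14a1 (SE 0.43, limma, adjusted p = 0.00142) and 1.75 for Col12a1 (SE 0.27, limma, adjusted p = 0.00360). Col16a1 (ENSRNOG00000031475), whose product lies beside fibrils and near basement membranes, was at 5.41, 5.33 and 4.01 FPKM in group Sham, at 21.1, 20.0 and 15.4 in group MI and at 11.5, 10.2 and 16.3 in the DAPA group. Its log2 fold change in MI vs. Sham was 1.74 (SE 0.18, limma, adjusted p = 0.00130).

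In DAPA vs. MI, the fold changes of all 10 collagens were negative, but 1 was called lower, Col1a1, where 1.11% of all 13251 genes tested were. Col1a1 was also the only 1 of the 10 whose rats did not overlap between the groups with lower values under DAPA, which held for 7.16% of all genes. No collagen passed at an adjusted p, and 0% of all genes did. At an unadjusted limma p under 0.05 with no fold threshold, 2 collagens were lower, Col1a1 and Col16a1, beside 3.9% of all genes. The median log2 fold change of the 10 was -0.58, beside -0.02 over all genes, of which 52.8% were negative. The collagens of 1 rat are not independent of each other, so 10 negative values are not 10 separate observations.

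Col1a1 had a mean of 44.4% of its level in group MI, with a log2 fold change of -1.15 (SE 0.37, limma p = 0.0176, adjusted p = 0.558, exact permutation p over the rats = 0.1). This call was lost without MI replicate 2, where the value was -0.89, and without DAPA replicate 1, where it was -0.91. Col3a1 had a mean of 49.7% of its level in group MI and a log2 fold change of -1.05 (SE 0.46, limma p = 0.0575, adjusted p = 0.558, exact permutation p = 0.2). Its interval reached from -2.15 to 0.04. Col1a2 stood at 70.7% of its mean in group MI, with a log2 fold change of -0.51 and an interval from -1.17 to 0.14. The fold changes of the type V chains were -0.65 for Col5a1, -0.61 for Col5a2 and -0.40 for Col5a3, none of them called. Among the fibril-associated chains, Col16a1 had a log2 fold change of -0.55 (SE 0.21, limma p = 0.0335, adjusted p = 0.558, exact permutation p = 0.2), below the fold threshold. Col14a1 was at -0.61 and Col12a1 at -0.39. Col11a1 was the least different, at -0.11 with an interval from -0.76 to 0.53, and at 89.9% of its mean in group MI.

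**Figure D2:**
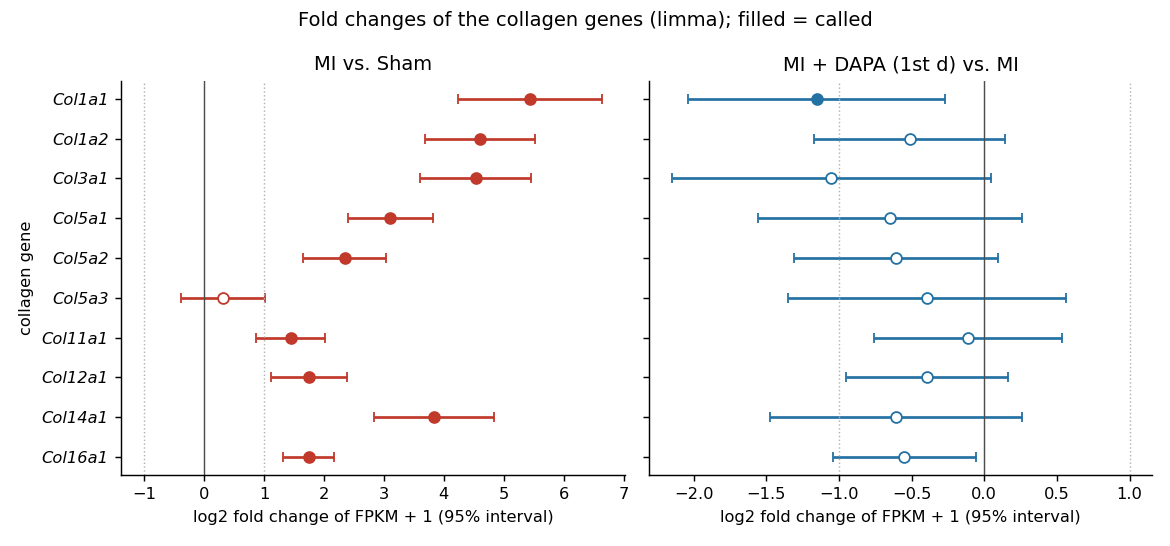
Log2 fold change of each collagen on log2(FPKM + 1) with its 95% limma interval in MI vs. Sham and in DAPA vs. MI. Filled points were called, and dotted lines mark a log2 fold change of 1 in size. In DAPA vs. MI only the intervals of Col1a1 and Col16a1 lie wholly below 0, and in MI vs. Sham only that of Col5a3 reaches 0.

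The rats of 1 group were not alike, and they kept much of their order from gene to gene. MI replicate 3 was the lowest of its group in 9 of the 10 collagens, Col11a1 being the exception. DAPA replicate 3 was the highest of its group in 7 collagens, but DAPA replicate 1 was the highest in Col1a2, Col11a1 and Col12a1. DAPA replicate 3 thus had the highest Col1a1 and the lowest Col1a2 of its group, and DAPA replicate 1 the reverse. In group Sham, replicate 1 was the highest in 8 collagens.

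In DAPA vs. Sham, 9 of the 10 collagens were called higher, where 9.54% of all 13359 genes tested were, and the 9 passed at an adjusted p as well, beside 8.74% of all genes. All but Col5a3 had every DAPA-treated rat above every rat of group Sham, which held for 23.2% of all genes. This comparison shares its 3 Sham rats with the first. Col1a1 had a log2 fold change of 4.28 (SE 0.48, limma, adjusted p = 0.00219), Col1a2 of 4.08 and Col3a1 of 3.48. Col14a1 was at 3.22, Col5a1 at 2.46, Col5a2 at 1.73 and Col16a1 at 1.19. Col12a1 was at 1.36 and Col11a1 at 1.33, values that the addition of 1 draws together at low levels. In mean FPKM, Col12a1 was 4.28 times and Col11a1 9.94 times that of group Sham. Col5a3 was at -0.08, with an interval from -0.98 to 0.81. In FPKM, mean Col1a1 in the DAPA-treated rats was 17.6 times and mean Col3a1 11.3 times that of group Sham.

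The ratio of 2 collagens within a rat does not depend on how the libraries were scaled. The ratio of Col1a1 to Col3a1 sets the mRNA of the alpha1 chain of type I collagen against that of type III collagen. Col1a2, the other type I chain, is left out of it. The log2 fold change of Col1a2 in MI vs. Sham was 4.60, near the 4.53 of Col3a1, so the ratio does not stand for type I collagen as a whole. It was 0.258, 0.126 and 0.188 in the rats of group Sham, 0.359, 0.364 and 0.353 in group MI, and 0.395, 0.326 and 0.290 in the DAPA group. All 6 ligated rats lay above the 3 rats of group Sham, and the rats of group MI were the closest to each other, with an SD of 0.00555 against 0.0660 in group Sham and 0.0531 under DAPA. The ratio in the 6 ligated rats was 1.89 times that of group Sham (log2 difference 0.92, two-sided exact permutation p = 0.0238, the smallest that 6 rats against 3 allow). Over the 12 ratio tests made, the adjusted value of this exact permutation p was 0.143. Without any 1 of the Sham rats the exact permutation p was 0.0714, the smallest that 6 rats against 2 allow, with log2 differences between 0.65 and 1.17. In MI vs. Sham the ratio was 1.96 times as high (exact permutation p = 0.1, the smallest that 3 rats against 3 allow). In DAPA vs. MI it was 0.932 times as high (exact permutation p = 0.6), and DAPA replicates 2 and 3 lay below all rats of group MI while DAPA replicate 1 lay above them. The SD within these groups was 0.16 on the log2 scale, larger than the difference of -0.10.

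Type V collagen showed the same kind of difference. The ratio of Col5a1 to Col5a2 was 0.372, 0.318 and 0.422 in group Sham, 0.653, 0.737 and 0.649 in group MI and 0.494, 0.668 and 0.862 in the DAPA group. Again the 6 ligated rats lay above group Sham, by 1.81 times (log2 difference 0.86, two-sided exact permutation p = 0.0238, adjusted value 0.143 over 12 tests). Leaving out a Sham rat gave an exact permutation p of 0.0714 here too, with log2 differences between 0.75 and 0.96. The ratio under DAPA was 0.969 times that of group MI (exact permutation p = 1). The ratio of Col1a1 to Col1a2, the chains of 1 molecule, was 5.50, 2.06 and 5.81 in group Sham, 5.47, 8.32 and 5.54 in group MI and 2.13, 4.18 and 7.50 in the DAPA group. Here the groups overlapped in every comparison, and the ligated rats were at 1.25 times group Sham (exact permutation p = 0.571), a direction that turned without Sham replicate 2, to a log2 difference of -0.16. Over all 9 rats the FPKM of Col1a1 was from 2.06 to 8.32 times that of Col1a2. Whether the gene model or the counting of Col1a2 set its level could not be checked, and its place in the order of levels and in the shares below rests on that value.

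**Figure D3:**
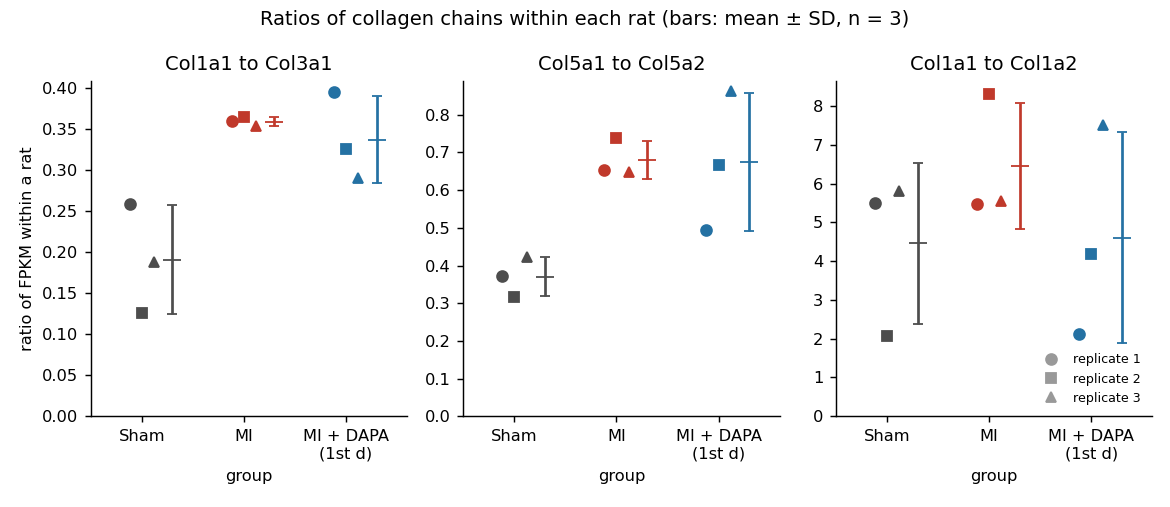
Ratios of FPKM within each rat for Col1a1 to Col3a1, Col5a1 to Col5a2 and Col1a1 to Col1a2, on linear axes, with the mean ± SD of each group (n = 3). The ratios of Col1a1 to Col3a1 and of Col5a1 to Col5a2 are higher in all 6 ligated rats than in group Sham. The ratio of Col1a1 to Col1a2 overlaps between the groups.

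The major chains made up more of the collagen transcripts in the ligated rats than in group Sham. The 10 members summed to 201 ± 88.1 FPKM in Sham rats, 4275 ± 1472 in MI rats and 2143 ± 800 in DAPA rats (SD, n = 3 each). Col1a1, Col1a2 and Col3a1 made up 76.1% ± 6.30 of the sum in Sham rats, 93.6% ± 0.797 in MI rats and 91.5% ± 1.73 in DAPA rats. The type V and XI chains were at 19.0% ± 5.74, 4.33% ± 0.831 and 5.76% ± 1.34. The fibril-associated chains were at 4.85% ± 0.585, 2.07% ± 0.0490 and 2.76% ± 0.421. The ranges of group Sham did not overlap those of the ligated groups in any of the 3 classes. Col5a3 alone was at 5.53% ± 3.23 in group Sham and at 0.294% ± 0.0401 in group MI. These shares were looked at after the values were known and were not tested.

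**Figure D4:**
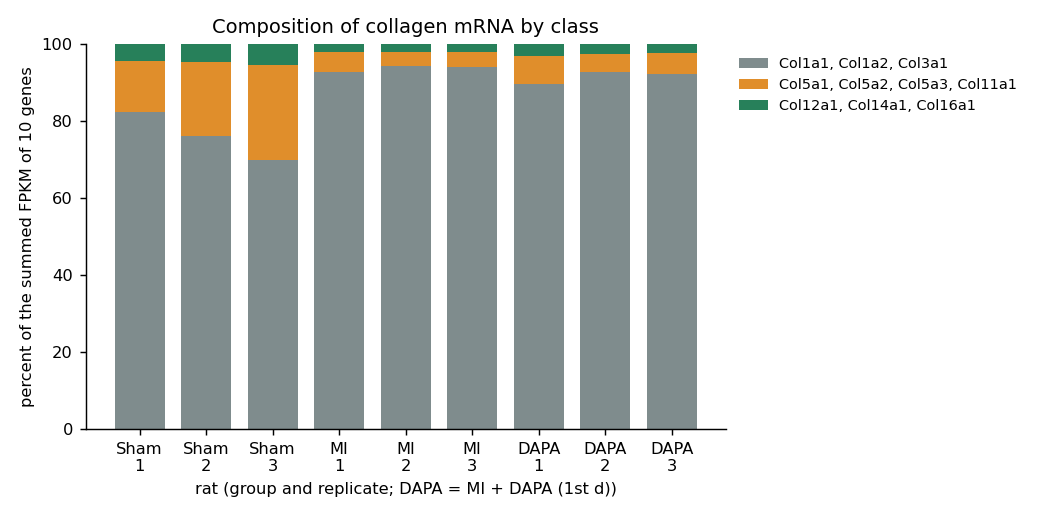
Share of each class of collagen in the summed FPKM of the 10 members, in percent, for each rat. The major chains take between 69.8% and 82.4% in the rats of group Sham and between 89.5% and 94.2% in the ligated rats.

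The order of the levels differed between group Sham and the ligated groups. In group Sham the mean levels ran from Col3a1 over Col1a1, Col5a2, Col5a3, Col5a1, Col1a2, Col16a1, Col14a1 and Col12a1 to Col11a1. The neighbours Col1a1 and Col5a2 overlapped, as did Col5a3 and Col5a1, Col5a1 and Col1a2, Col1a2 and Col16a1, and Col16a1 and Col14a1. In both ligated groups the order was Col3a1, Col1a1, Col1a2, Col5a2, Col5a1, Col14a1, Col16a1, Col5a3, Col12a1 and Col11a1. Within group MI the neighbours from Col1a2 to Col14a1 overlapped, and within the DAPA group those from Col5a2 to Col14a1 and Col16a1 with Col5a3. Col1a2 and Col14a1 stood higher in the order of the ligated groups than in that of group Sham, and Col5a3 lower.

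Genes that serve the collagens were counted from lists of known partners, to be read against the 12.1% of all genes called higher in MI vs. Sham. Of the genes listed, Ddr2 and Prrx1 also stand in the list of fibroblast markers. Of the genes for procollagen synthesis and folding, 9 of 18 tested were called higher in MI vs. Sham, among them Serpinh1, the collagen chaperone, P4ha1 and P4hb, subunits of prolyl hydroxylase, and Plod2, a lysyl hydroxylase. Of the genes for procollagen processing, fibril assembly and crosslinking, 13 of 17 tested were called higher, among them Lox, Loxl1, Loxl2 and Loxl3, which crosslink fibrils, Dcn, Lum and Bgn, proteoglycans that bind them, and Adamts2, which removes the amino-terminal propeptide. Of the collagen receptors and degrading enzymes, 7 of 9 tested were called higher, including Mmp2 and Mmp14, which cut matrix proteins, and Ddr2, a collagen receptor. Of the regulators of collagen transcription, 9 of 23 were called higher, including Ccn2 and Tgfb3, and 1 lower, where 10.3% of all genes were, namely Nfyc, a subunit of a CCAAT-binding factor. The medians of these 4 lists were 0.90, 2.52, 1.84 and 0.73, beside -0.01 over all genes. Some genes counted as higher passed the filter on low values only through the MI rats, so their calls were in part set by that filter. Among them were P4ha3, at most at 0.880 FPKM in group Sham, and Itga11, at most at 0.295. Other fibrillar and fibril-associated collagens were mostly too low to test, and of the 3 tested, Col27a1 and Col11a2 were called lower in MI vs. Sham.

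None of the genes of these lists was called by limma in either direction in DAPA vs. MI, where 1.11% of all genes were called lower and 0.951% higher. An unadjusted limma p under 0.05 was reached by 2 of them, Adamts2 and Ctsk. Over all genes, 3.9% were lower and 4.59% higher at that p, so these 2 do not set the lists apart. The fold change was negative in 18 of 18 genes for processing, assembly and crosslinking (median -0.44) and in 13 of 18 for synthesis and folding (median -0.24). It was negative in 8 of 9 receptors and degrading enzymes (median -0.46) and in 15 of 23 regulators (median -0.18), where 52.8% of all genes were negative. As with the collagens, genes measured in the same rats are not independent, so these counts are not counts of separate observations. Adamts2 was at 68.0, 57.1 and 36.7 FPKM in group MI and at 25.0, 22.7 and 44.8 under DAPA, with a log2 fold change of -0.81 (limma, adjusted p = 0.558). Ctsk, the collagen-cutting cathepsin K, was at 112, 106 and 64.9 FPKM in group MI and at 51.3, 57.2 and 69.0 under DAPA, with a log2 fold change of -0.64 (limma, adjusted p = 0.558). In both genes the third DAPA-treated rat lay above the third rat of group MI, as in Col3a1. Pcolce, which speeds removal of the carboxy-terminal propeptide, had a log2 fold change of -0.45, and Lum of -0.75. Mmp2 was at -0.83 and Itga11, a collagen-binding integrin chain of fibroblasts, at -0.53. P4ha2, P3h4 and P4ha3, enzymes that hydroxylate proline or assist in collagen modification, were at -0.50, -0.31 and -0.71. Among the regulators, Scx was at 0.82, Ybx1 at 0.50 and Creb3l1 at -0.70. The 1 other collagen tested here, Col27a1, was at 0.08.

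Along with the collagens, summed markers of fibroblasts, macrophages, T cells and B and plasma cells stood above their Sham level in every MI rat. Those of endothelial and smooth muscle cells did not. In bulk tissue, more cells of a type and more RNA per cell cannot be told apart. The 10 fibroblast markers, none of them a matrix gene, summed to 54.5 to 80.1 FPKM in group Sham, 463 to 685 in group MI and 439 to 728 in the DAPA group. Of these, 8 of 9 tested were called higher in MI vs. Sham, beside 12.1% of all genes. In DAPA vs. MI 0 of 9 were called by limma, and 3 had an unadjusted p under 0.05 in either direction, beside 3.9% of all genes lower and 4.59% higher at that p. The fold change was negative in 8 of these 9 markers, which are not independent of each other either, where 52.8% of all genes were negative. Their median log2 fold change was -0.46, beside -0.58 for the collagens and -0.02 over all genes. The 7 macrophage markers in the table summed to 62.6 to 152 FPKM in group Sham, 560 to 1107 in group MI and 307 to 654 under DAPA. The 13 cardiomyocyte markers in the table summed to 9179 to 13196, 2860 to 14735 and 11651 to 24716 FPKM, with MI replicate 2, the rat with the highest Col1a1 and Col3a1, at the lowest value and MI replicate 3, the rat with the lowest collagens, at the highest of group MI. Under DAPA, replicate 3 had the lowest cardiomyocyte sum and the highest Col1a1 and Col3a1, but the lowest Col1a2 and Col11a1. The highest cardiomyocyte sum was in DAPA replicate 2, and the lowest Col1a1 and Col3a1 were in DAPA replicate 1. In DAPA vs. MI the cardiomyocyte markers had a median log2 fold change of 1.298, with 2 of 13 called higher, Tnni3 and Myl2, where 0.951% of all genes were. The 7 endothelial markers in the table summed to 1099 to 1297 FPKM in group Sham, 295 to 380 in group MI and 393 to 432 under DAPA. The 6 smooth muscle and myofibroblast markers overlapped between all groups, from 297 to 1372 FPKM in group Sham, from 492 to 676 in group MI and from 442 to 697 under DAPA. The B and plasma cell markers reached 3108 FPKM in MI replicate 2 against at most 10.5 in the DAPA-treated rats and 9.58 in group Sham, and the T cell markers reached 254 FPKM in that rat. The 5 epicardial and mesothelial markers summed to 32.7 to 39.8 FPKM in group Sham, to 95.1 in MI replicate 2, to 9.37 and 32.6 in the other MI rats and to 10.1 to 14.6 in the DAPA group. The 5 adipocyte markers summed to 3923 to 5575 FPKM in group Sham, 172 to 713 in group MI and 559 to 1077 in the DAPA group, with Fabp4, which endothelial cells also express, called lower in MI vs. Sham and the defining genes Adipoq, Plin1 and Cidec at 0 in every Sham rat. MI replicate 2 thus had the highest macrophage, B and plasma cell, T cell and epicardial sums of group MI. The Col1a1 call in DAPA vs. MI was lost without this rat and also without DAPA replicate 1. In DAPA replicate 1 the B and plasma cell, T cell and epicardial sums were 6.44, 33.8 and 10.8 FPKM. Chondrocyte markers were low, at 0.830 to 4.36 FPKM over all 9 rats, with Matn1 at 0 in every rat of group Sham and the DAPA group. The part of these cell types in the collagen differences was not tested.

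Set against the fibroblast markers of the same rat, the summed collagens were 3.75, 3.11 and 2.36 times as high in group Sham, 6.32, 8.54 and 5.999 times in group MI and 3.03, 4.66 and 4.10 times in the DAPA group. The rats of group MI lay above those of both other groups, and the DAPA-treated rats overlapped group Sham. On average this ratio under DAPA was 0.563 times that of group MI. The ratio was chosen after the values were seen and is given without a test.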

How the data were processed

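RNA from left ventricles of 9 rats was poly-A selected and sequenced by the authors, who deposited 1 FPKM value per gene and rat. The submitters' processing notes name HISAT2 2.0.5, StringTie 1.3.3b, featureCounts 1.5.0-p3 and DESeq2. The genome build of the table is not given in the sources used here, so no coordinates are taken from it. Columns were assigned to rats by their names, and 0 value columns were left unused. The labels call the 3 samples of a group biological replicates, and each title names a pair of items. Whether a pair was repeat runs or pooled animals is not stated, so p-values measure the spread between samples.

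The low values of a gene are whole multiples of 1 read, which gave whole reads in every library for 18896 of 18896 genes above 0 in at least 4 libraries. The recovered reads served for depth and rescaling only, and counts were not tested. Limma 3.58.1 in R 4.3.3 was run, with trend, on log2(FPKM + 1) of the genes that reached 1 FPKM in 3 or more of the 6 rats, 2 groups per fit and no covariate, and called as the study's methods state, at p under 0.05 (taken as unadjusted) and an absolute log2 fold change over 1. Ratios within rats were set against each other with exact permutation tests (two-sided) on log2 ratios, 12 in all, with Benjamini-Hochberg adjustment. The fits were tested on simulated data. Python 3.11.15 with pandas 2.3.3, scipy 1.17.1 and matplotlib 3.10.9 was used. The alternatives were a pseudocount of 0.1, no filter, 1 fit for all 9 rats, a block for the replicate number, scaling to all recovered reads or to those outside the mitochondrial genome, adjusted p-values, no fold threshold, and each rat left out in turn.

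The members and gene lists were chosen with earlier results of these data known. Named besides the 10 members are, from each list of partners, at most 3 genes with the smallest limma p in DAPA vs. MI, and the genes whose levels over the 9 rats correlated best with the mean of the members (8 genes) and with Col11a1, Col14a1 and Col16a1 (3 genes each). Other genes were named after their values were seen. Listed genes that were not in the table were not analysed here.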

Additional observations from a re-analysis of the deposited data

How the results depend on the processing

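The number of collagens called in MI vs. Sham (9) and in DAPA vs. Sham (9) stayed within 8 to 10 and within 8 to 9 under every alternative tried. The 8 arose where a ligated rat was left out, since Col11a1 then no longer passed the filter. In DAPA vs. MI, the count of 1 became 2 with all 9 rats in 1 fit, 2 with values scaled to all recovered reads, 2 with no fold threshold and 0 with adjusted p-values. It ranged from 0 to 2 with single rats left out: 0 without MI replicate 2 or DAPA replicate 1, and 2 without MI replicate 3 or DAPA replicate 3. The collagen added by scaling, by the joint fit and without either replicate 3 was Col3a1. The fold change of Col11a1 in this comparison ranged from -0.27 to 0.11 with single rats left out and turned positive without MI replicate 1 (0.08) or DAPA replicate 3 (0.11), and that of Col5a3 in DAPA vs. Sham was 0.71 when scaled to all recovered reads and ranged from -0.52 to 0.15 with single rats left out, at 0.09 without Sham replicate 3, 0.12 without DAPA replicate 1 and 0.15 without DAPA replicate 2. The cause of these shifts was not tested. Scaling to all recovered reads moved the median of all genes to 0.92, -0.21 and 0.74 in the 3 comparisons, in the order of the text. Among the ratio results that set 3 rats against 3, 7 kept their direction under every alternative. Of these 7, the ratio of Col1a1 to Col3a1 in DAPA vs. MI all but vanished without DAPA replicate 3, at a log2 difference of -6.79e-05. With 3 rats against 3 no exact permutation p below 0.1 is possible, so none of the 7 could pass 0.05. The ratios of Col1a1 to Col3a1 and of Col5a1 to Col5a2 in the ligated rats vs. Sham also kept their direction. Their log2 differences ran from 0.65 to 1.17 and from 0.75 to 0.96 with single rats left out. They no longer had an exact permutation p under 0.05 once any 1 Sham rat was left out, where 6 rats against 2 allow none. The ratio of Col1a1 to Col1a2 turned in DAPA vs. Sham, where it was close to 0, to -0.0672 with group means and from -0.48 to 0.47 with single rats left out, and in the ligated rats vs. Sham it ranged from -0.16 to 0.59. The ratio of Col5a1 to Col5a2 in DAPA vs. MI turned to 0.00957 with group means and ranged from -0.24 to 0.16 with single rats left out. Rats of the same number did not deviate together in all pairs of groups (correlations from -0.32 to 0.20), so the numbers were not taken to pair the rats; with the replicate block, 9, 1 and 9 collagens were called, as without it. The smallest levels, Col11a1 in group Sham, rested on 12 to 19 reads per rat, which limits their precision.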

Other observations

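Outside the collagens, the genes whose levels over the 9 rats ran most nearly with the mean of the 10 members were Dpt (Pearson r = 0.997), which encodes dermatopontin, a matrix protein that binds collagen fibrils, Sec31a, a coat subunit of vesicles that leave the endoplasmic reticulum, Rcn3, a calcium-binding protein of that compartment, Pros1, Fzd7, Adam9, Pheta2 and Lrp1 (r = 0.993), out of 12736 genes ranked. The mean FPKM of Dpt was 92.4 in Sham rats, 514 in MI rats and 348 in DAPA-treated rats, and that of Sec31a was 13.6, 26.6 and 22.5. The genes most like Col14a1 were Lum, Clec3b and Col1a1, and those most like Col16a1 were Adamts2, Col6a1, a chain of the beaded-filament collagen VI, and Sun2. Col11a1 had other neighbours: Cnih1 (r = 0.992), a cargo receptor of the secretory pathway, Ipo5 and Pgam1. The mean FPKM of Cnih1 was 29.8, 55.8 and 52.1 in the 3 groups, and that of Ipo5 was 10.5, 29.8 and 30.4. These correlations are descriptions over 9 rats that fall into a group of 3 Sham rats and 6 ligated rats, share 1 scaling per library, and carry no p-value.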
